A study of Ovis aries with 41 samples.

Results

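The keratin genes of wool and epidermis were followed along the tail of 7 adult rams of the Improved Jezersko-Solčava breed. They are the genes of the count table whose symbol is KRT with a number, or K with a number, without the keratin-associated proteins, and 39 of the 31182 genes of the table met this rule. RNA selected on oligo(dT) was sequenced from punch biopsies of tail skin taken after slaughter at sheared and shaved sites at its base, at mid-tail and at its tip. The 4 A/A rams (835507, 871772, 871784 and 871932) carry 2 copies of the ancestral allele of the HOXB13 promoter and had short tails, and the 3 D/D rams (871787, 871868 and 871869) carry 2 copies of the derived allele and had long tails. All were adult rams of 1 breed, described in the discussion of the study as about a year old, while its slaughtered rams as a whole were older on average. The mid-tail and tip of the genotypes do not lie at the same distance from the base, so that genotype and distance cannot be told apart at these positions. The methods of the study name 3 A/A rams for sequencing, but its supplement lists 4, which are the 4 labelled here, and all 4 were used. A ram gave 2 libraries at a position (only 1 for D/D ram 871869 at mid-tail), and the sources do not say whether the 2 came from separate biopsies. Their counts were summed, so that a ram counts once. For comparisons of positions the error is how much the change along the tail varies between rams, with 1 estimate shared by both genotypes. For comparisons of genotypes it is the spread between rams at that position. Values of single rams are given as CPM, the counts scaled to a common library size after TMM normalisation, always in the order of the ram numbers above.

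Keratins are the proteins of the intermediate filaments of epithelial cells. A filament is built from pairs of an acidic type I and a basic type II keratin, and each layer of skin uses its own pairs. Hair keratins fill the cortex and cuticle of the wool fibre, other keratins build the inner root sheath that moulds it, KRT5 and KRT14 mark the basal layer of the epidermis, and KRT1, KRT2 and their partners appear in the layers above. KRT8, KRT18 and KRT19 belong to simple epithelia such as those of glands. In bulk skin, fewer cells of a type and less RNA per cell cannot be told apart.

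By these roles the members were 7 type I hair keratins (K38, KRT32, KRT33A, KRT35, KRT36, KRT39 and KRT40), 3 type II hair keratins (KRT82, KRT84 and KRT2.11) and 6 inner root sheath keratins (KRT25, KRT26, KRT27, KRT28, KRT71 and KRT74). The 14 epidermal keratins comprised 3 of the basal layer (KRT5, KRT14 and KRT15), 8 of suprabasal layers (KRT1, KRT2, KRT9, KRT23, KRT24, KRT77, KRT78 and KRT80) and 3 activated or appendage keratins (KRT6A, KRT17 and KRT79). A further 9 genes are not typical of wool or epidermis, namely the simple epithelial KRT8, KRT18, KRT19 and KRT20, the mucosal KRT4 and KRT13, the corneal KRT3 and KRT12, and the keratin-like KRT222. In the RefSeq annotation of ARS-UI_Ramb_v3.0, 22 members lie on chromosome 11 between 40609363 and 41581684 and 17 on chromosome 3 between 133471144 and 134218816. The first stretch holds the type I genes, and the second holds the type II genes together with the type I gene KRT18 (133471144 to 133474717), which stands beside its partner KRT8 (133512119 to 133519637). No transcript lengths were at hand, so levels are compared between rams and positions and not between genes. KRT33A, KRT2.11 and other hair keratins have near copies, and reads shared with them could have been split in the counting. The hair keratins counted as V15 (listed by RefSeq also as KRT31) and LOC100526780 (KRT83) do not meet the rule by symbol and are given beside the members, whereas KRT10, KRT16, KRT81, KRT85 and KRT86 are not analysed here.

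The 41 libraries held 9177395 to 23431409 counts and the 21 ram sums 17132063 to 37645752, and the keratins took 2.99% to 6.49% of them. All 39 keratins passed the filter on low counts for the comparisons of positions, and 38 passed it at the base and mid-tail for the comparisons of genotypes, where KRT20, the keratin of Merkel cells, with 201 counts over all libraries, did not. The skin label was checked on marker genes. Of 23 keratinocyte genes other than keratins 22 had a row, of 20 wool follicle genes 19 had one, and none of these was at 0 in every library, while the 7 skeletal muscle genes with a row summed to 8.5 to 32.4 CPM.

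From base to tip, 10 of the 39 keratins passed the test over all rams, against 4.52% of all genes tested. The suprabasal keratins KRT2, KRT1 and KRT78 and the mucosal keratins KRT13 and KRT4 rose, and the hair keratin K38, the simple epithelial keratins KRT8, KRT18 and KRT19 and the keratin-like KRT222 fell. The other 9 hair keratins, all 6 inner root sheath keratins and all 3 basal keratins did not pass it. No keratin passed the test between A/A and D/D rams at any position. Ram 835507 and 3 base libraries stood apart and are described first.

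In A/A ram 835507 the wool keratins were low and were lower at each position away from the base. The summed hair keratins of this ram stood at 4070.3 CPM at the base, 834 at mid-tail and 259 at the tip, which was 15.7-fold lower than at its base. In the other 6 rams the sum at the tip was 0.988 to 2.18 times that at the base. Its inner root sheath keratins summed to 10634 CPM at the base, 2561 at mid-tail and 805 at the tip, or 13.2-fold lower than at the base. At the tip all 7 type I hair keratins, all 3 type II hair keratins and all 6 inner root sheath keratins of ram 835507 lay below all 6 other rams, with median log2 differences from the other A/A rams of -5.29, -5.14 and -4.04. The same held for all 16 genes at mid-tail and for 6, 3 and 2 of them at the base. The sum of its suprabasal keratins did not fall with them and stood at the tip at 1.01 times that at the base. That was still the lowest ratio, against 1.23 to 5.85 times in the other 6 rams. Its 14 epidermal keratins together stood at the tip at 0.912 times the base, against 1.25 to 3.17 times in the other 6. Of the 8 suprabasal genes 3 lay below all 6 other rams at the tip and 1 above them. KRT23 lay below them at each position and stood at 224 CPM at the base, 118 at mid-tail and 90.0 at the tip.

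Genes of the follicle and of dividing cells moved with the wool keratins in this ram. The 19 wool follicle genes other than keratins summed to 2212 CPM at its base, 812 at mid-tail and 512 at the tip, against 3536 to 6432 CPM at the tip of the other rams. HOXC13, a homeobox regulator of hair keratin genes, stood at 88.5, 28.5 and 22.7 CPM and FOXN1, a regulator of hair shaft differentiation, at 211, 52.1 and 20.7 CPM, in that order of positions. The 7 genes of dividing cells summed to 243, 134 and 66.4 CPM, against 217 to 395 CPM at the tip of the other rams. In this ram the 22 keratinocyte genes other than keratins summed to 14188, 11116 and 10747 CPM, against 11708 to 18088 CPM at the tip of the other rams. Its sebaceous gland genes summed to 1736 CPM at the tip, above the 378 to 889 CPM of the other rams, and its fibroblast genes to 3209 CPM, below their 5787 to 12909 CPM. Its smooth muscle genes summed to 761 CPM at the base, 2037 at mid-tail and 2387 at the tip, against 468 to 822 CPM at the tip of the other rams. At the tip its endothelial genes (354 CPM against 153 to 332), immune genes (437 CPM against 132 to 363) and melanocyte genes (103 CPM against 51.6 to 72.3) also lay above all other rams. Within this ram each of these lists was higher still at mid-tail, at 403, 644 and 113 CPM. The part of these differences in the keratin values was not tested. Results on keratins that lean on this ram are given with and without it. It was set apart on its low wool keratins, so rises of wool genes called only without it follow in part from that choice.

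**Figure D1:**
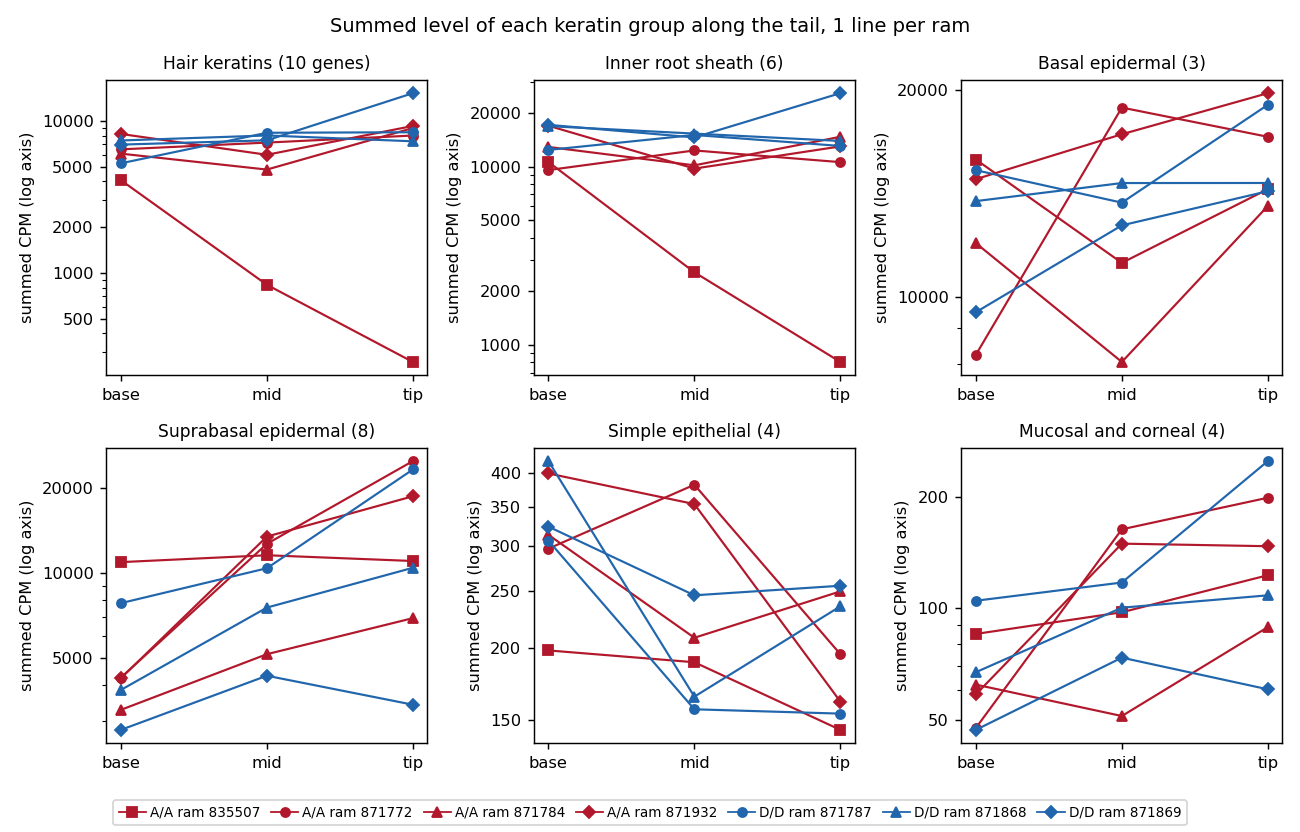
Summed level of 6 groups of keratins (CPM, log axis) by tail position, each ram drawn as its own line (A/A red, D/D blue). The hair and inner root sheath sums of A/A ram 835507 end at 259 and 805 CPM at the tip, below the 7338 and 10609 CPM of the lowest of the other rams, while its suprabasal sum lies among theirs.

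The 3 base libraries that stood apart were library 1 of A/A ram 871772, library 2 of A/A ram 871784 and library 1 of D/D ram 871868. KRT1, the type II keratin of the first suprabasal layers, stood at 194, 234 and 348 CPM in them, against 7155, 4399 and 4449 CPM in the other library of the same ram and position, or 12.8-fold to 36.9-fold lower. KRT77, a type II keratin of the sweat gland duct and suprabasal cells, was 10.1-fold to 27.6-fold lower in them and KRT2 3.20-fold to 38.9-fold. LORICRIN, the main protein of the cornified envelope, was 9.76-fold to 23.7-fold lower (a gene chosen after its values were seen). Among the keratinocyte genes other than keratins it was the only one more than 5-fold lower in all 3. KRTDAP was 3.73-fold to 6.48-fold lower, while for IVL and CDSN the other library stood at 0.842 to 2.32 and 0.855 to 4.32 times the level of the low one. Over the 39 keratins, only KRT1 and KRT77 were more than 5-fold lower in all 3 of them. For the basal keratins the other library stood at 0.660 to 4.65 times the level of the low one for KRT14 and 0.659 to 3.99 times for KRT5. For the hair cortex keratin KRT33A this ratio was 0.847 to 1.17. The 3 libraries held 12197846, 15974052 and 10429322 counts, against 9996782, 16083735 and 19181128 in their partners. Only pairs of libraries at the base were searched for a low KRT1, so the 3 do not show that such libraries are particular to the base. Over all genes the pair that differed most was that of ram 871784 at mid-tail (chi-square per degree of freedom 128). The results on suprabasal keratins are given also with ram sums that leave out the 3 base libraries alone, a setting chosen after the data were seen.

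**Figure D2:**
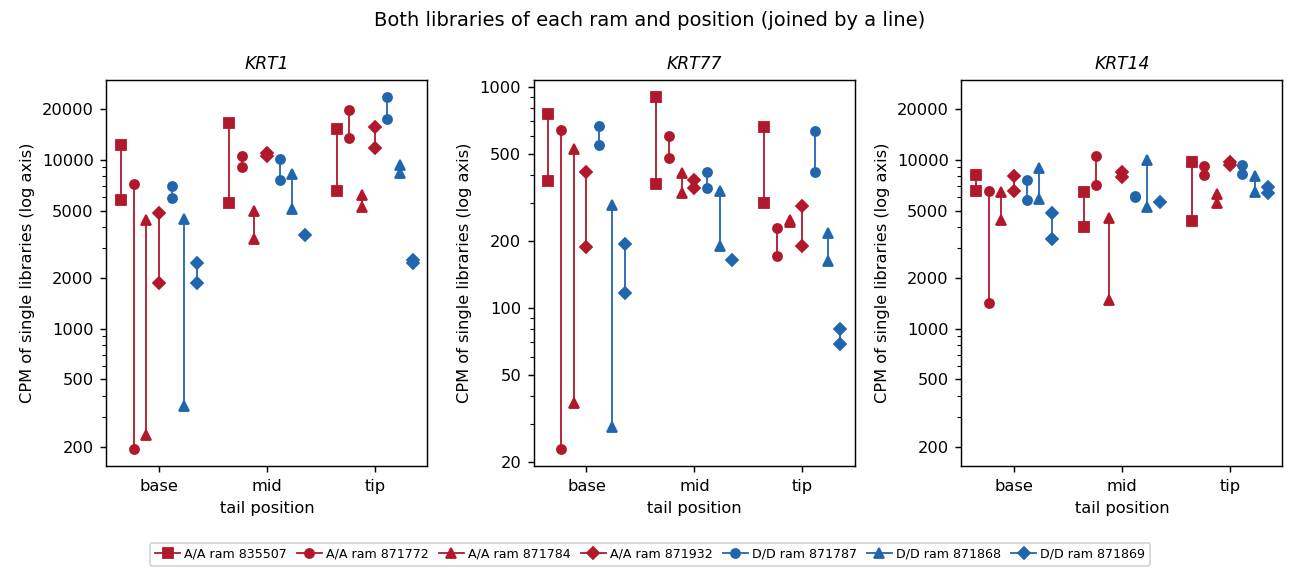
Level of KRT1, KRT77 and KRT14 in single libraries (CPM, log axis) by tail position, with the libraries of 1 ram and position joined by a line. In KRT1 and KRT77 the lower libraries of A/A rams 871772 and 871784 and D/D ram 871868 at the base lie more than 10-fold below their partners, which in KRT14 is not so.

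Tail tip and base were compared within rams by edgeR's quasi-likelihood test with the ram as a block. Over all 7 rams, 878 of 19444 genes (4.52%) had an adjusted p under 0.05, and 10 of the 39 keratins did, 5 in each direction. In the A/A rams 317 genes (1.63%) passed and 5 keratins did, of which KRT1, KRT2 and KRT78 rose and K38 and KRT222 fell. In the D/D rams 110 genes (0.566%) passed and 0 keratins did, although 9 had an unadjusted p under 0.05. There DESeq2 called 5 keratins (K38, KRT2, KRT8, KRT18 and KRT78) and limma-voom called 1 (K38). No share over all genes is set beside these counts or the 9, so no excess of keratins is read from them. The difference of the change between the genotypes passed the edgeR test for 0 of 19444 genes (0%) and 0 keratins, with 1188 genes and 1 keratin at an unadjusted p under 0.05, whereas DESeq2 called 15 genes and limma-voom 0, none of them keratins. Calls in 1 genotype and not in the other therefore do not show a difference between the genotypes.

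K38, a type I hair keratin gene on chromosome 11 (41369178 to 41392353), fell the most. It stood at 4.37, 156, 246 and 192 CPM at the base of the A/A rams, at 0.449, 145, 73.3 and 50.2 at mid-tail and at 0.0663, 40.5, 28.4 and 8.75 at the tip. In the D/D rams it stood at 45.6, 192 and 72.1 CPM at the base, at 24.5, 134 and 71.4 at mid-tail and at 18.8, 32.4 and 17.5 at the tip. Every ram was lower at mid-tail than at the base, D/D ram 871869 by little, and every ram was lowest at the tip, where ram 835507 had 2 counts in all. The log2 fold change from base to tip was -2.71 over all rams (SE 0.32, adjusted p = 0.000243 from edgeR), -3.51 in A/A (SE 0.44, adjusted p = 0.00174 from edgeR) and -1.92 in D/D (SE 0.45, adjusted p = 0.0644 from edgeR). Without ram 835507 it was -2.56 over all rams (adjusted p = 0.000294 from edgeR), -3.20 in A/A (adjusted p = 0.00279 from edgeR) and -1.92 in D/D (adjusted p = 0.0368 from edgeR). That ram is A/A, so the D/D change stayed at -1.92 while the error shared by both genotypes changed. Over all rams the fall was called in 18 of 19 alternative settings, the exception being the fit without the ram block, and its adjusted p ran from 1.97e-11 to 0.285. At mid-tail its log2 fold change over all rams was -1.05 (SE 0.29, adjusted p = 0.180 from edgeR). Among keratins the difference between the genotypes in the change to the tip had an unadjusted p under 0.05 for K38 alone, at -1.59 (SE 0.60, adjusted p = 0.789 from edgeR).

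None of the other 9 hair keratins passed the test. KRT35, a type I keratin of the hair matrix and young cortex, stood at 533, 940.0, 1169 and 1599.9 CPM at the A/A base, 110.3, 972, 673 and 953 at mid-tail and 26.1, 1097, 1561 and 1019 at the tip. Its D/D values were 844, 1422 and 1487 CPM at the base, 1183, 1177 and 1690.2 at mid-tail and 1107, 1299 and 2464 at the tip. Apart from ram 835507, 4 rams were higher and 2 lower at the tip than at the base, and the log2 fold change over all rams was -0.29 (SE 0.39), or 0.17 (SE 0.17) without ram 835507. Read as a ratio of CPM within a sample, K38 over KRT35 was 0.00821, 0.166, 0.211 and 0.120 at the A/A base and 0.00254, 0.0369, 0.0182 and 0.00858 at the A/A tip. In D/D it was 0.0540, 0.135 and 0.0484 at the base and 0.0170, 0.0250 and 0.00710 at the tip. The ratio was lower at the tip in all 7 rams. In ram 835507 both genes were low, and its tip ratio rests on only 2 counts of K38.

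KRT33A, a cortex keratin of type I, stood at 1809, 2685, 2028 and 2671 CPM at the A/A base, 398, 2498, 1932 and 2026 at mid-tail and 122, 2976, 3163 and 3478 at the tip. In D/D KRT33A stood at 1721, 2573 and 2571 CPM at the base, 3315, 2959 and 2534 at mid-tail and 3458, 2935 and 5836 at the tip. All rams but 835507 were higher at the tip than at the base, most in ram 871869. KRT2.11, a type II wool keratin, stood at 1390.4, 2091, 1849 and 2805 CPM at the A/A base, 242, 2869.6, 1451 and 2294 at mid-tail and 87.4, 3085, 2986 and 3794 at the tip. In D/D KRT2.11 stood at 2114, 2333 and 1961 CPM at the base, 2978, 2678 and 2084 at mid-tail and 3029, 1989 and 5147 at the tip. Ram 835507 was the lowest at every position. KRT84, a type II hair keratin, stood at 61.4, 97.2, 174 and 172 CPM at the A/A base, 18.7, 183, 139.5 and 141 at mid-tail and 5.47, 176, 289 and 182 at the tip. In D/D KRT84 stood at 114, 206 and 229 CPM at the base, 194, 271 and 259 at mid-tail and 192, 305 and 409 at the tip. In KRT2.11 5 of the rams other than 835507, and in KRT84 all 6, were higher at the tip than at the base.

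As a group, the 10 hair keratins had a median change from base to tip of -0.57 (log2) in A/A, with all 10 negative, and of 0.52 in D/D, with 9 of 10 positive and K38 the exception. Without ram 835507 the A/A median was 0.29 and 9 of 10 were positive. Over all rams the median went from -0.06 with this ram to 0.38 without it, against -0.02 over all genes tested. Without it 4 hair keratins passed the edgeR test over all rams, namely K38, which fell, and KRT36 (log2 fold change 0.90, adjusted p = 0.0127), KRT33A (0.60, adjusted p = 0.0452) and KRT84 (0.63, adjusted p = 0.0329), which rose. With all rams those 3 had 0.43, 0.14 and 0.20. Ram 835507 was set apart because wool keratins were low in it, so these calls are not separate support for a rise. No share over all genes is set beside the 4. Of the hair keratins under other symbols, V15 stood at 1459.7, 2600.5, 2466 and 4309 CPM at the A/A base, 75.9, 4273, 4584 and 4023 at the tip, and in D/D at 2303, 3856 and 3396 at the base against 4185, 4283 and 9501 at the tip. Neither V15 (log2 fold change 0.18) nor LOC100526780 (0.14) passed the test over all rams, nor did they without ram 835507 (0.70, adjusted p = 0.0929, and 0.63, adjusted p = 0.0822, from edgeR). Of the 6 genes of keratin-associated proteins, which cross-link hair keratin filaments, KRTAP6-1 fell (log2 fold change -1.24, adjusted p = 0.0105 from edgeR) and the other 5 did not pass, with a median of 0.03 over the 6. Without ram 835507 the median was 0.45, KRTAP6-1 fell (-1.15, adjusted p = 0.0243 from edgeR) and KRTAP5.4 rose (0.64, adjusted p = 0.0261 from edgeR). Of the 19 wool follicle genes other than keratins, 0 rose and 1 fell, SHH (log2 fold change -1.15, adjusted p = 0.0321 from edgeR), a signal of the growing follicle, and the median was -0.15. Without ram 835507 the median was -0.04, SHH fell (-0.99, adjusted p = 0.0417 from edgeR) and CRYM rose (0.57, adjusted p = 0.0444 from edgeR).

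Inner root sheath keratins repeated the split between ram 835507 and the rest. KRT71, a type II keratin of this sheath, stood at 4156, 3465, 5268 and 7496 CPM at the A/A base, 1017, 5442, 3134 and 4423 at mid-tail and 329.8, 4382, 6089 and 5318 at the tip. In D/D KRT71 stood at 5044, 7198 and 6647 CPM at the base, 6055, 6234 and 5529 at mid-tail and 5279.8, 5809.7 and 11315 at the tip. At mid-tail and tip ram 835507 lay far below all others. KRT25, its type I counterpart, stood at 3693, 3909, 4346 and 5518 CPM at the A/A base, 909.9, 4343, 4076 and 3190.4 at mid-tail and 272, 3858, 5093 and 4557 at the tip. In D/D KRT25 stood at 4623, 5592 and 6321 CPM at the base, 5693, 5424 and 5440.2 at mid-tail and 5003, 4862 and 8695 at the tip. At the tip the genotypes overlapped with and without ram 835507. The median log2 fold change of the 6 genes from base to tip was -0.88 in A/A and 0.11 in D/D, and -0.04 in A/A without ram 835507. KRT26, a type I keratin of the sheath cuticle (chosen after its values were seen), was lower at the tip than at the base in all 7 rams, at 183, 273, 333 and 409 CPM at the A/A base against 11.5, 144, 292 and 184 at the tip, and at 288, 273 and 347 against 189, 127 and 336 in D/D. Its log2 fold change over all rams was -1.06 (SE 0.31, adjusted p = 0.0665 from edgeR), -0.67 without ram 835507 (adjusted p = 0.0283 from edgeR) and -1.10 without the 3 base libraries (adjusted p = 0.0413 from edgeR).

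**Figure D3:**
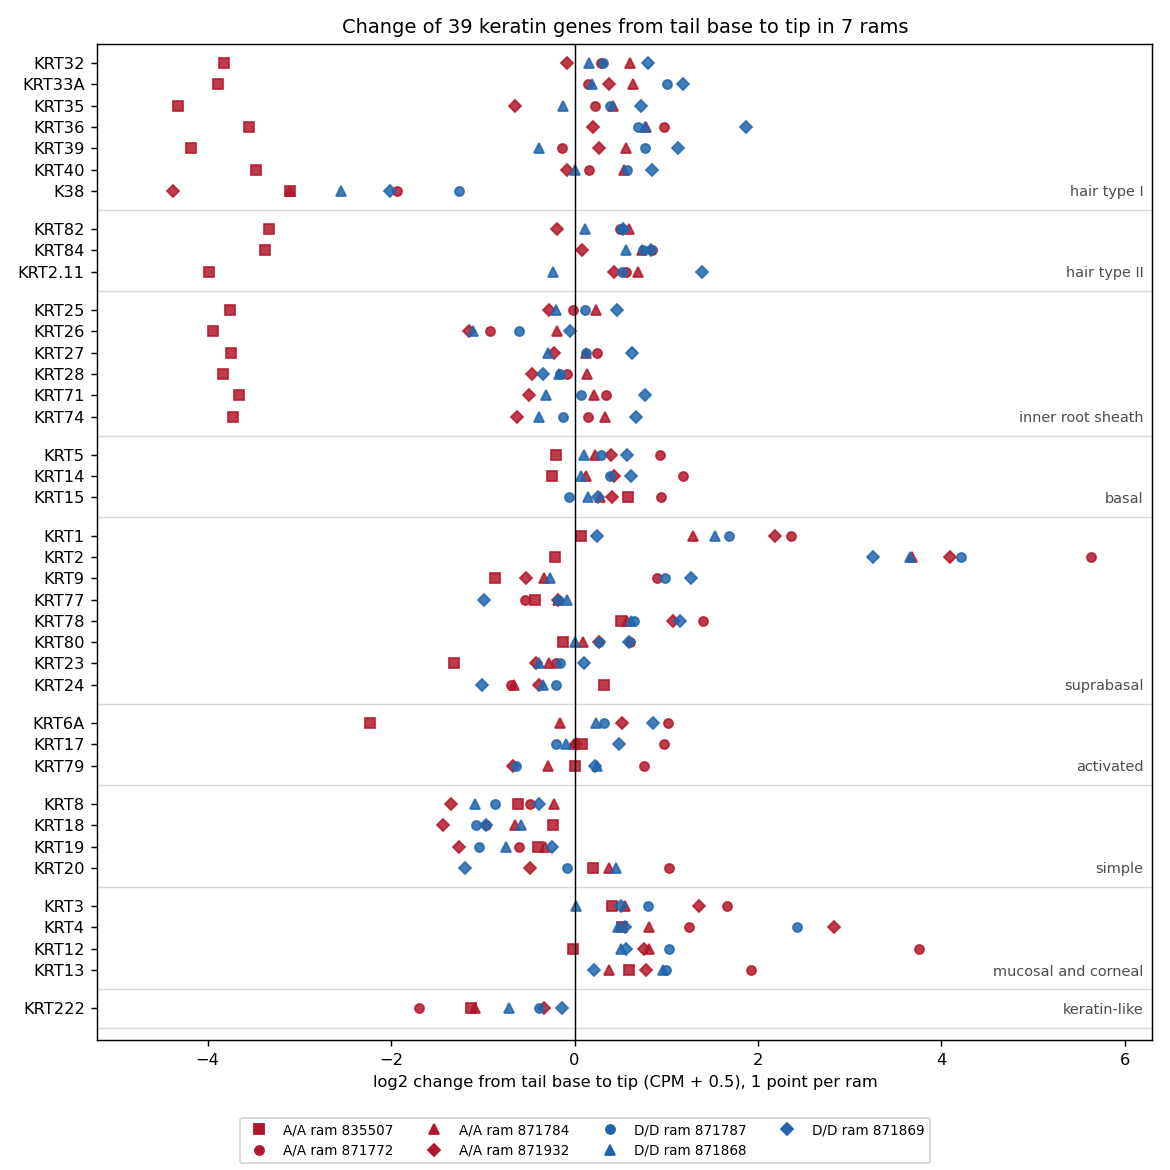
Change of each of the 39 keratins from tail base to tip as the log2 difference of CPM with 0.5 added, with 1 point per ram (A/A red, D/D blue) and genes grouped by role. In the hair and inner root sheath genes ram 835507 (red squares) lies far left of the others, except in K38, where all 7 rams are left of 0, and 6 of the 7 points of KRT2 lie right of 3.

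KRT2, the type II keratin of the uppermost living layers of the epidermis (chromosome 3, 133732289 to 133740216), rose the most. It stood at 569, 139, 24.7 and 209 CPM at the base of the A/A rams, at 477, 1841, 19.9 and 1838 at mid-tail and at 489, 6931, 322 and 3586 at the tip. In D/D it stood at 64.6, 78.8 and 20.1 CPM at the base, 590.4, 261 and 61.3 at mid-tail and 1208, 1000.3 and 196 at the tip. The tip was higher than the base in 6 of 7 rams, and in ram 835507, which had the highest base, it was not. The log2 fold change was 3.47 over all rams (SE 0.57, adjusted p = 0.00275 from edgeR), 3.25 in A/A (SE 0.78, adjusted p = 0.0483 from edgeR) and 3.68 in D/D (SE 0.83, adjusted p = 0.0598 from edgeR). Without ram 835507 it was 4.02 over all rams (adjusted p = 0.000165 from edgeR) and 4.36 in A/A (adjusted p = 0.00395 from edgeR), and without the 3 base libraries 3.15 (adjusted p = 0.00207 from edgeR). Over 19 alternative settings the adjusted p over all rams ran from 1.19e-07 to 0.0741. In A/A the call was lost in 9 of 20 settings, among them 6 of the 7 fits that left out 1 ram, all but that without 835507, and its adjusted p ran from 0.00101 to 0.482. In D/D the rise passed the test both without ram 835507 and without the 3 base libraries, with adjusted p = 0.00892 and adjusted p = 0.0281 from edgeR. Ram 835507 is A/A, so leaving it out acts on the D/D test through the error shared by both genotypes and not through D/D counts.

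KRT1 (chromosome 3, 133702813 to 133708642) was higher at the tip in all 7 rams, by little in rams 835507 and 871869. Its A/A values were 9214, 3355, 2345 and 3142 CPM at the base, 10100.5, 9643, 4207 and 10637 at mid-tail and 9693, 17208, 5752 and 14243 at the tip. Its D/D values were 6446, 3024 and 2117 CPM at the base, 8775, 6322 and 3589 at mid-tail and 20762, 8743 and 2507 at the tip. The log2 fold change was 1.33 over all rams (SE 0.25, adjusted p = 0.00726 from edgeR) and 1.45 in A/A (SE 0.34, adjusted p = 0.0418 from edgeR). The rise was smaller without the low base libraries, at 0.97 over all rams (adjusted p = 0.0282 from edgeR) and 0.91 in A/A (adjusted p = 0.156 from edgeR), the latter no longer called. DESeq2 did not call KRT1 over all rams either (adjusted p = 0.0926), and over 19 alternative settings its adjusted p ran from 0.000837 to 0.162. Without ram 835507 the change was 1.58 over all rams (adjusted p = 0.000837 from edgeR) and 1.94 in A/A (adjusted p = 0.00918 from edgeR). The A/A call was lost in 11 of 20 settings, and with 1 ram left out it was made without 835507 or 871869 alone. The ratio of KRT2 to KRT1 in CPM was 0.0617, 0.0416, 0.0105 and 0.0667 at the A/A base against 0.0504, 0.403, 0.0560 and 0.252 at the tip and 0.01002, 0.0261 and 0.00950 at the D/D base against 0.0582, 0.114 and 0.0781 at the tip, higher at the tip in 6 of 7 rams.

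KRT78, a type II keratin of suprabasal cells, rose as well. It stood at 25.6, 21.5, 12.5 and 26.1 CPM at the A/A base, 21.2, 43.3, 12.5 and 39 at mid-tail and 36.7, 57.5, 18.8 and 55.6 at the tip. In D/D KRT78 stood at 22.3, 14.4 and 5.01 CPM at the base, 20.6, 22.4 and 10.8 at mid-tail and 35.1, 22.3 and 11.8 at the tip. Every ram was higher at the tip, with a log2 fold change of 0.85 over all rams (SE 0.15, adjusted p = 0.00521 from edgeR) and 0.88 in A/A (SE 0.20, adjusted p = 0.0376 from edgeR). Without the 3 base libraries the A/A change was 0.64 and was not called (adjusted p = 0.0667 from edgeR), while that over all rams still was. With 1 ram left out the A/A call was made without 835507 alone, and it was lost in 9 of 20 settings, with an adjusted p from 0.00249 to 0.839. KRT77 was lower at the tip in all 7 rams, at 582, 301, 284 and 285 CPM at the A/A base against 431, 207, 250.0 and 252 at the tip, and among D/D rams at 607, 200.4 and 149.9 against 534, 189 and 75.4. Its log2 fold change of -0.36 over all rams (adjusted p = 0.251 from edgeR) became -0.70 without the 3 base libraries and was then called (adjusted p = 0.0322 from edgeR). Those libraries were chosen by a low KRT1 at the base alone and were low in KRT77 too. Leaving them out raises the base of KRT77, so this call is not separate support for a fall. KRT9, KRT23, KRT24 and KRT80 did not pass the test, so that over all rams 3 of the 8 suprabasal keratins rose and 0 fell. The median log2 fold change of the 8 was 0.26 over all rams, -0.07 in A/A, with 4 positive and 4 negative, and 0.56 in D/D. Without the 3 base libraries these medians were 0.19, -0.22 and 0.53. Among the 22 keratinocyte genes other than keratins 2 rose and 0 fell, with a median of 0.35, and without ram 835507 5 rose and 0 fell, with a median of 0.48. With all rams the risers were DSG3 (log2 fold change 0.70, adjusted p = 0.00598 from edgeR), a desmosomal cadherin, and FLG (1.00, adjusted p = 0.0496 from edgeR), the source of filaggrin in the granular layer. No share over all genes is set beside the 5 without ram 835507.

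None of the 3 basal keratins passed the test from base to tip. KRT5, the type II keratin of the basal layer, stood at 7207, 4144, 5965 and 6974 CPM at the A/A base, 4964, 9236, 4542 and 8070.4 at mid-tail and 6249, 7935, 6957 and 9184 at the tip. In D/D KRT5 stood at 7753, 6336 and 4800.0 CPM at the base, 7073, 7031 and 6476 at mid-tail and 9474, 6784 and 7157 at the tip. The genotypes overlapped at every position. KRT14, its type I partner, stood at 7419, 3744, 5486 and 7133 CPM at the A/A base, 5038, 8584, 3049 and 8037 at mid-tail and 6275, 8482, 5969 and 9629 at the tip. In D/D KRT14 stood at 6687, 6856 and 4308 CPM at the base, 6069, 7011 and 5642 at mid-tail and 8739, 7206 and 6617 at the tip. Their log2 fold changes from base to tip over all rams were 0.31 (SE 0.17) and 0.34 (SE 0.19), in the same direction as in the suprabasal genes but not called (adjusted p = 0.368 and adjusted p = 0.383 from edgeR). KRT1 over KRT14, a ratio of the early suprabasal to the basal keratin, was 1.24, 0.896, 0.427 and 0.440 at the A/A base and 1.54, 2.03, 0.964 and 1.48 at the A/A tip, and went from 0.964, 0.441 and 0.491 to 2.38, 1.21 and 0.379 among D/D rams, higher at the tip in 6 of 7 rams and lower in 871869. KRT15, a type I keratin of basal cells and follicle stem cells, stood at 1210.4, 351, 521 and 723 CPM at the A/A base and 1203, 1023, 452 and 1128 at mid-tail, and in D/D at 840.3, 587 and 393 and 566, 595 and 588. From base to tip its log2 fold change over all rams was 0.32 (SE 0.18).

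KRT6A and KRT17, keratins of the outer root sheath that are also switched on in wounds, did not pass the test. KRT17 stood at 1572, 911, 2377 and 2351 CPM at the A/A base, 1214, 2373, 1442 and 2691 at mid-tail and 1659, 1789, 2374 and 2383 at the tip. In D/D KRT17 stood at 2509.7, 2819 and 1762 CPM at the base, 1853, 2438 and 2290.5 at mid-tail and 2178, 2635 and 2469 at the tip. No position separated the genotypes. KRT6A stood at 1760.1, 982, 2065 and 2045 CPM at the A/A base, 570.3, 2444, 1556 and 2061 at mid-tail and 374, 1983, 1849 and 2918 at the tip. In D/D KRT6A stood at 1856, 2129 and 1808 CPM at the base, 1808, 2622 and 2267 at mid-tail and 2328, 2502 and 3282 at the tip. In ram 835507 KRT6A was low at mid-tail and tip, whereas its KRT17 did not differ from base to tip by more than the other rams.

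Of the 4 simple epithelial keratins 3 fell over all rams. KRT8, the type II member, stood at 67.1, 86.7, 81.7 and 129.99 CPM at the A/A base, 57.5, 123, 74.9 and 91.0 at mid-tail and 43.7, 61.6, 70.2 and 50.9 at the tip. In D/D KRT8 stood at 102, 131 and 93.5 CPM at the base, 57.7, 68.6 and 92.1 at mid-tail and 55.4, 61.7 and 71.2 at the tip. Again the genotypes overlapped at every position. KRT18, its type I partner, stood at 15.5, 31.8, 32.9 and 31.8 CPM at the A/A base, 17.1, 24.5, 18.4 and 30.1 at mid-tail and 13.2, 16.1, 20.8 and 11.5 at the tip. In D/D KRT18 stood at 23.4, 30.2 and 23.8 CPM at the base, 10.8, 10.9 and 15.3 at mid-tail and 10.9, 20.04 and 11.9 at the tip. At mid-tail every A/A ram lay above every D/D ram, and at base and tip they overlapped. KRT19, a type I keratin of glands and of the outer root sheath, stood at 115, 178, 198 and 237 CPM at the A/A base, 114, 234, 114 and 232 at mid-tail and 87.02, 116, 159 and 98.7 at the tip. In D/D KRT19 stood at 181, 258 and 205 CPM at the base, 87.8, 84.7 and 139 at mid-tail and 87.4, 153 and 172 at the tip. Each of the 3 was lower at the tip than at the base in all 7 rams. The log2 fold changes over all rams were -0.74 (SE 0.15, adjusted p = 0.00927 from edgeR), -0.85 (SE 0.17, adjusted p = 0.0106 from edgeR) and -0.66 (SE 0.18, adjusted p = 0.0479 from edgeR). The median over the 4 genes was -0.65 among A/A and -0.80 among D/D rams, and without ram 835507 -0.69 in A/A. In the 3 low base libraries these keratins were not low, their partners standing at 0.647 to 1.05 times their level for KRT8 and 0.440 to 0.673 times for KRT19. Over 19 settings KRT8 was lost in 3, with an adjusted p from 0.000141 to 0.0737, and KRT18 in 2, with an adjusted p from 0.000142 to 0.0872. Both were lost without ram 871787, and KRT8 also without ram 871868. Without the 3 base libraries KRT8 and KRT18 were still called and KRT19 was not (log2 fold change -0.49, adjusted p = 0.159 from edgeR). KRT19 was not called without ram 835507 either (-0.69, adjusted p = 0.0584 from edgeR), and over 19 settings its adjusted p ran from 0.00774 to 0.249. The call of KRT19 was lost in 8 of the 19 settings, among them 6 of the 7 fits that left out 1 ram. Of 5 sweat gland genes tested 0 rose and 0 fell over all rams, with a median of -0.00. The 6 sweat gland genes with a row summed to 142 to 206 CPM at the base and 194 to 226 CPM at the tip of the A/A rams other than 835507. In ram 835507 they summed to 249 and 246 CPM, and in D/D to 164 to 217 and 144 to 224 CPM. The part of glands in the fall was not tested further.

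Among the 4 mucosal and corneal keratins KRT13 and KRT4 rose. KRT13 stood at 50.9, 28.9, 40.2 and 37.2 CPM at the A/A base, 73.2, 81.6, 32.5 and 90.8 at mid-tail and 77.4, 111, 52.5 and 64.4 at the tip. In D/D KRT13 stood at 62.0, 36.2 and 28.6 CPM at the base, 57.9, 56.5 and 40.1 at mid-tail and 124, 71.1 and 33.2 at the tip. The ranges of the genotypes overlapped throughout. KRT4, its type II partner in mucosal epithelia, stood at 13.1, 6.62, 7.77 and 6.23 CPM at the A/A base, 10.7, 32.7, 6.93 and 32.4 at mid-tail and 19.0, 16.4, 14.0 and 47.3 at the tip. In D/D KRT4 stood at 12.0, 9.15 and 6.34 CPM at the base, 29.8, 19.6 and 14.8 at mid-tail and 66.5, 13.0 and 9.52 at the tip. Both were higher at the tip in all 7 rams, with log2 fold changes of 0.83 (SE 0.20, adjusted p = 0.0310 from edgeR) and 1.28 (SE 0.35, adjusted p = 0.0478 from edgeR). Both were lower in the low base libraries, their partners standing at 1.40 to 4.67 times their level for KRT13 and 1.21 to 11.7 times for KRT4. Without those libraries neither was called (adjusted p = 0.0876 and adjusted p = 0.0891 from edgeR), and over 19 settings the adjusted p ran from 0.00215 to 0.171 for KRT13 and from 0.00324 to 0.278 for KRT4. The calls were lost in 9 of 19 settings for KRT13 and in 8 for KRT4, for each of them in 5 of the 7 fits that left out 1 ram. KRT222 stood at 5.65, 5.22, 5.15 and 2.79 CPM at the A/A base against 2.32, 1.27, 2.16 and 2.10 at the tip, and at 1.77, 2.47 and 2.44 against 1.23, 1.31 and 2.17 in D/D. At mid-tail KRT222 stood at 2.21, 1.70, 4.72 and 1.62 CPM among A/A rams, against 2.53, 2.37 and 2.12 among D/D rams. It was lower at the tip in all 7 rams and fell in A/A (log2 fold change -1.25, SE 0.29, adjusted p = 0.0410 from edgeR) and over all rams (-0.89, SE 0.22, adjusted p = 0.0334 from edgeR), but without ram 835507 it was not called over all rams (-0.88, adjusted p = 0.0548 from edgeR) or in A/A (-1.23, adjusted p = 0.114 from edgeR). Over 19 settings its adjusted p over all rams ran from 0.00164 to 0.187, and the call was lost in 5 of the 7 fits that left out 1 ram. In A/A it was lost in each of the 7 fits that left out 1 ram, with an adjusted p over 20 settings from 0.000924 to 0.274.

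**Figure D4:**
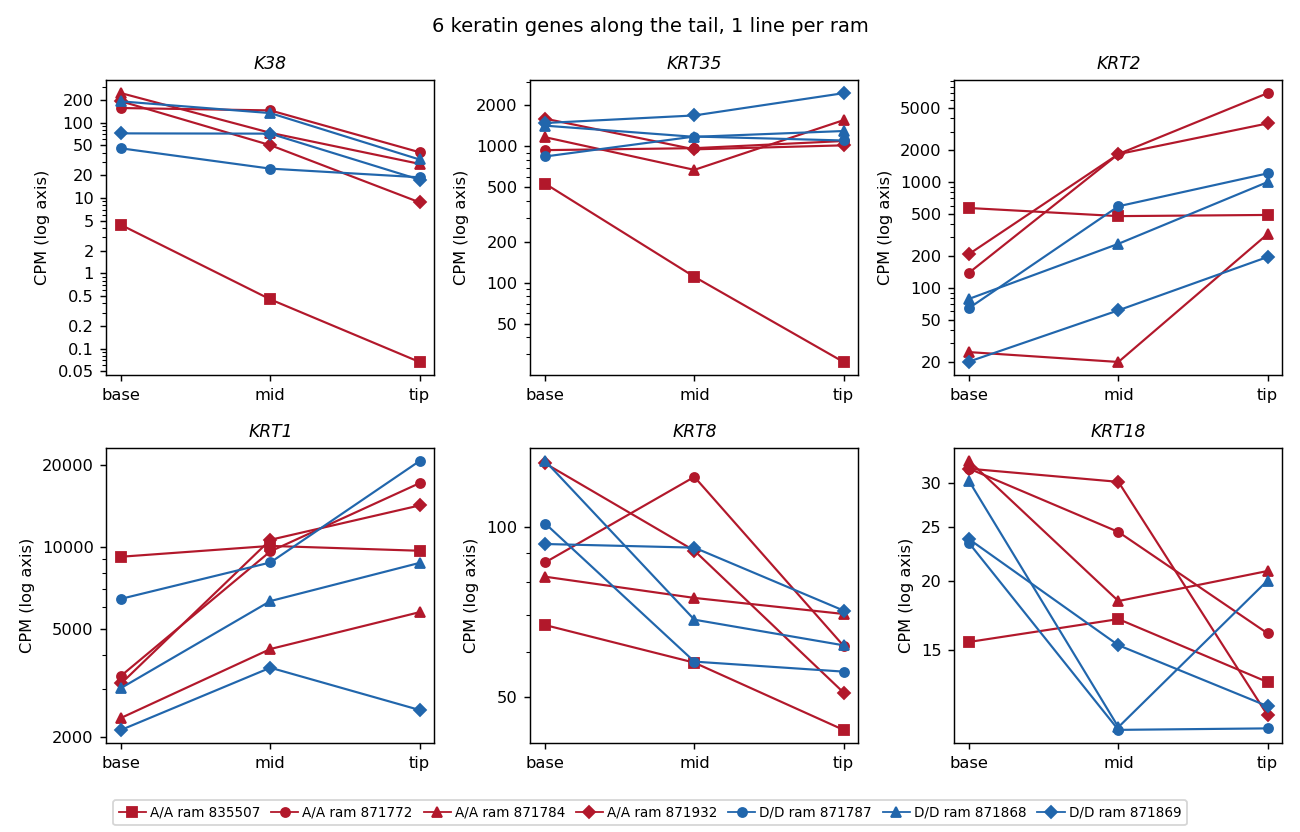
Level of K38, KRT35, KRT2, KRT1, KRT8 and KRT18 (CPM, log axis) by tail position, each ram drawn as its own line (A/A red, D/D blue). K38 is lowest at the tip in all 7 rams, whereas KRT35 drops to 26.1 CPM at the tip of ram 835507 and lies above 1000 CPM at the tip of the others, and KRT2 is higher at the tip than at the base in all rams but that one.

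Markers of other cells of the biopsies were counted at the same positions. Of 6 fibroblast genes 0 rose and 2 fell over all rams (median log2 fold change -0.71), and their sum ran from 10111 to 21119 CPM at the base and from 3209 to 12909 CPM at the tip. Of 4 adipocyte genes 0 rose and 2 fell (median -1.96). Sebaceous gland, melanocyte and skeletal muscle genes counted 7, 6 and 6 tested, of which 0 rose and 1 fell in each list, with medians of 0.41, -2.06 and -0.03. None of 7 dividing cell, 4 smooth muscle, 3 endothelial and 4 immune genes tested passed, with medians of -0.36, 0.21, -0.15 and -0.24. Without ram 835507 all 4 adipocyte genes and 1 of the 6 fibroblast genes fell. All values of keratins are shares of the counts of a biopsy, and the part of the depth of tissue taken in their changes was not tested.

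At mid-tail edgeR called no keratin against the base. Over all genes, 26 of 19444 genes (0.134%) passed over all rams, 5 (0.0257%) in A/A and 0 (0%) in D/D, where 1311 genes had an unadjusted p under 0.05, DESeq2 called 40 and limma-voom 0. By edgeR 0 keratins passed over all rams, in A/A and in D/D, with 10, 9 and 7 at an unadjusted p under 0.05. No share over all genes is given for the 10 and the 9, which are not read as an excess. DESeq2 called KRT18 over all rams and K38 in A/A, and limma-voom called 0. KRT18 had the smallest p over all rams, with a log2 fold change of -0.66 (SE 0.17, adjusted p = 0.146 from edgeR), and KRT2 the largest change, at 1.78 (SE 0.54, adjusted p = 0.219 from edgeR). KRT1 was higher at mid-tail than at the base in all 7 rams, with 0.88 (SE 0.25, adjusted p = 0.184 from edgeR). Without ram 835507 KRT1 (1.06, adjusted p = 0.0443 from edgeR) and KRT2 (2.27, adjusted p = 0.0353 from edgeR) passed. Without the 3 base libraries KRT1 stood at 0.53 (adjusted p = 0.401 from edgeR). For the 10 hair keratins the median change (log2) was -0.86 among A/A rams, -0.25 among A/A rams without 835507, and 0.36 among D/D rams.

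Genotypes were compared over the 7 rams of each position. At the base, mid-tail and tip 0 of 17738, 17996 and 17842 genes (0% each) passed the edgeR test, with 567, 1014 and 1824 at an unadjusted p under 0.05, and DESeq2 called 18, 31 and 67 genes and limma-voom 0. Of the keratins edgeR, DESeq2 and limma-voom called 0 at each position, and 2, 3 and 0 had an unadjusted p under 0.05 from edgeR.

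At the base, KRT222 was higher in every A/A than in every D/D ram, with the values given above, and its A/A to D/D difference (log2) was 1.08 (SE 0.33, adjusted p = 0.9999 from edgeR). It was the only keratin of the 38 tested whose genotypes did not overlap there, while over all genes 2.72% lay above and 1.97% below. KRT2 was higher in A/A by a log2 fold change of 2.114 (SE 0.84), but A/A ram 871784 lay within the range of the D/D rams. KRT25 had -0.33 (SE 0.19).

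At mid-tail the A/A rams had all 10 hair keratins and all 6 inner root sheath keratins at lower fitted levels than the D/D rams, with medians of -0.97 and -0.79, against 0.03 over all genes. Without ram 835507 the medians were -0.61 and -0.49. For 9 of the 16, KRT25, KRT27, KRT32, KRT33A, KRT35, KRT40, KRT71, KRT82 and KRT84, every A/A ram lay below every D/D ram, against 3.83% of all genes, and a further 2 keratins, KRT18 and KRT24, lay above, against 4.23%. The 9 share their rams and are not 9 separate observations. The 19 wool follicle genes other than keratins summed to 3309 to 3376 CPM in the A/A rams other than 835507 and to 4231 to 4488 CPM in D/D at mid-tail. KRT18 at mid-tail differed by 0.85 (SE 0.28, adjusted p = 0.848 from edgeR). KRT24, a type I keratin of differentiating keratinocytes, stood at 4.09, 3.77, 2.83 and 3.92 CPM in A/A, against 1.69, 2.03 and 2.17 in D/D, a log2 fold change of 0.88 (SE 0.33). At the base it stood at 4.33, 5.59, 3.98 and 4.21 CPM in A/A, against 4.23, 2.86 and 2.94 in D/D, and at the tip at 5.54, 3.26, 2.34 and 3.09 against 3.61, 2.15 and 1.21. KRT77 stood at 586, 529.9, 373 and 359.9 CPM in A/A, against 379, 247 and 165 in D/D, with 0.79 (SE 0.32). In KRT77 the lowest A/A ram lay below the highest D/D ram.

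At the tip the genotypes overlapped in all 39 keratins, against 6.64% of all genes with every A/A above and 8.41% with every A/A below every D/D ram. The summed hair keratins were 6625 ± 4277 CPM in A/A (SD, n = 4) and 10324 ± 4271 in D/D (SD, n = 3), and in A/A ram 835507 stood at 259 CPM and the other 3 at 8009, 8972 and 9259 CPM. The median A/A to D/D difference (log2) was -0.64 for the hair keratins and -0.79 for those of the inner root sheath, and -0.22 and -0.40 without ram 835507. KRT35 differed by -0.80 (SE 0.95) with ram 835507 and by -0.39 (SE 0.31, adjusted p = 0.674 from edgeR) without it. KRT33A differed by -0.74 (SE 0.84) with that ram and by -0.33 (SE 0.26, adjusted p = 0.660 from edgeR) without it. The smallest adjusted p was that of KRT78, at 0.88 (SE 0.46, adjusted p = 0.459 from edgeR). KRT15 stood at 1819, 672, 631 and 962 CPM in A/A, against 808, 651 and 469 in D/D at the tip, a log2 fold change of 0.68 (SE 0.40). KRT20 had 10, 29, 11 and 7 counts in the A/A rams and 3, 13 and 6 in the D/D rams there, a log2 fold change of 0.92 (SE 0.55, adjusted p = 0.487 from edgeR).

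**Figure D5:**
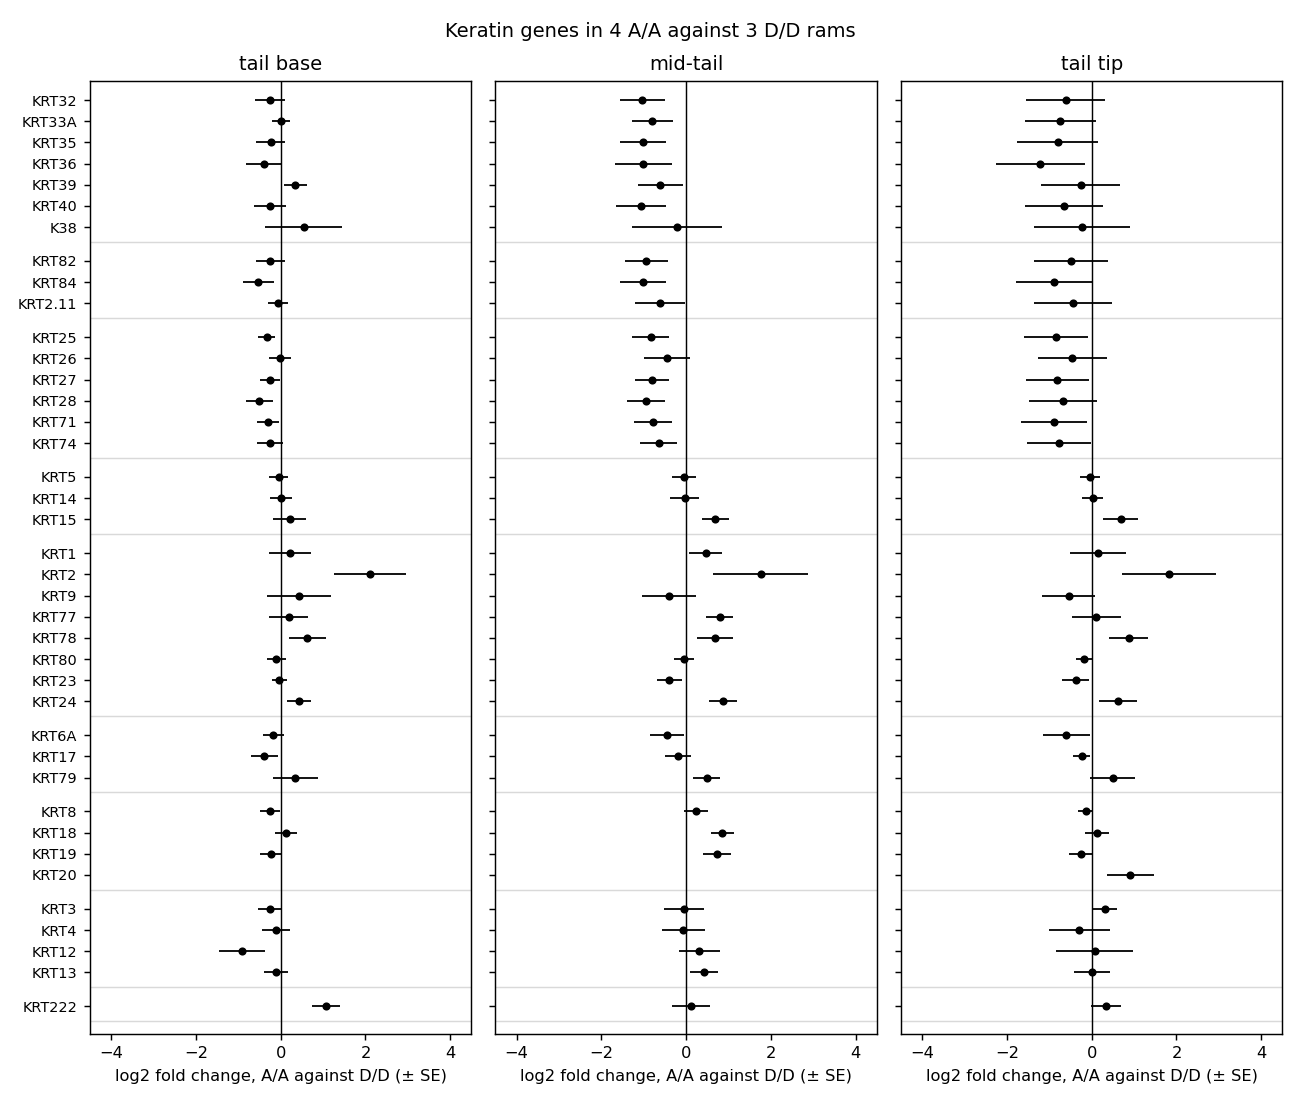
Log2 fold change of A/A against D/D rams with its standard error for each keratin by tail position, from edgeR. At mid-tail and tip the hair and inner root sheath genes lie left of 0, with medians of -0.97 and -0.64 for the hair keratins, and no gene passed the test.

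The spread between rams differed by keratin group. It was taken as the SD of log2 CPM between rams of 1 genotype and position, pooled, and set beside the SD between the libraries of 1 ram and position. A ram value sums the libraries of a ram, which averages out part of their spread, whereas the SD between libraries is that of single libraries. The SDs are therefore not on the same scale, and similar values do not mean that rams differ no more than libraries do. For type I hair keratins the median SD between rams was 1.46, and 0.41 without ram 835507, against 0.46 between libraries. Inner root sheath keratins had 1.07, 0.40 and 0.33. Without that ram the SD between ram sums of wool keratins was about as large as that between single libraries. Basal keratins had 0.43, 0.46 and 0.46, and simple epithelial keratins 0.39, 0.37 and 0.49. Suprabasal keratins stayed spread without that ram, at 0.75 with it, 0.80 without it and 0.50 between libraries. KRT2 had the widest spread without ram 835507, with an SD of 2.16 between rams and 1.195 between libraries, followed by KRT12 and KRT4. K38 had 2.35 with ram 835507 and 0.89 without it, against 0.48 between libraries. In KRT1 the libraries of 1 ram differed more (SD 1.30) than the rams did (SD 0.89). By these unlike measures single libraries spread wider than ram sums in 12 of the 39 keratins, and in 21 of the 39 without ram 835507.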

How the data were processed

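Skin of the tail from 7 rams (4 A/A, 3 D/D) was sequenced as 41 libraries, placed in groups by the genotype and position in the labels. The authors prepared libraries with the CorALL kit, checked reads with FastQC 0.11.9, aligned them by ContextMap, with BWA inside it, against ARS-UI_Ramb_v3.0 and had featureCounts, of a version the sources used here do not give, count them per RefSeq gene. The deposited values are these raw counts, and all columns were used (0 left out). The 14 tip columns were filed as estimated counts only since a word of their names looked like a position to an automatic check, and the authors deposited them as whole raw counts like the rest, so that rounding changed nothing.

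Counts were added up per ram at each position (21 sums), and edgeR 4.0.16 (R 4.3.3) tested these by quasi-likelihood, following TMM normalisation and the edgeR filter on low counts for each design. Positions were compared with the ram as a block, since each animal gave all positions, and its samples deviated together in 21 of 21 pairs (correlation 0.152 to 0.813, median 0.449). Genotypes were compared within positions. P-values were adjusted after Benjamini-Hochberg over all genes tested. The standard error (SE) is the size of the log2 fold change over the square root of F. Libraries of the same ram and position differed by more than counting noise (chi-square per degree of freedom 14.6 to 128), so that none repeated the counts of another, and both entered the sum of their ram. They may be technical replicates. The scripts were tested on simulated data.

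Keratin groups were set by role, with KRT2.11 put among the type II hair keratins after its row was seen. The members and lists were chosen with earlier results of these data known. The lists hold wool follicle and keratinocyte genes, keratin-associated proteins, and genes of dividing cells, sebaceous and sweat glands, melanocytes, fibroblasts, skeletal and smooth muscle, adipocytes, endothelium and immune cells. Ram values are given for keratins called in any comparison, the 2 of highest mean CPM in each wool or epidermal group, the 4 of smallest p from base to tip in each genotype and over all rams and the 3 of smallest p between genotypes at each position, and others were chosen after their values were seen. Alternatives were DESeq2 1.42.0, limma-voom in limma 3.58.1, other scalings and filters, single libraries, other blocks, each genotype alone, stricter thresholds and each ram left out. A filter by group and ram sums without 3 base libraries were added after the data were seen.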

Additional observations from a re-analysis of the deposited data

Results flagged for a closer look

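In the A/A groups of 4 rams, a ram was singled out where its gap to the nearest other ram, divided by the range of the group, exceeded Dixon's 95% critical value of 0.829. The groups of 3 D/D rams were not tested. Of 105 groups looked at, 22 were singled out, where chance alone gives about 1 in 20, and genes of 1 keratin group move together, so that the 22 are not independent.

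Ram 835507 accounts for 18 of them. At the A/A base it was low in K38 (4.37 CPM) and KRT18 (15.5 CPM) and high in KRT77 (582 CPM). At mid-tail it was low in the summed type I hair keratins (557 CPM), the summed inner root sheath keratins (2561 CPM), KRT33A (398 CPM), KRT35 (110.3 CPM) and KRT84 (18.7 CPM). At the tip it was low in the summed type I hair keratins (161 CPM), type II hair keratins (97.8 CPM), all hair keratins (259 CPM) and inner root sheath keratins (805 CPM), and in KRT2.11 (87.4 CPM), KRT25 (272 CPM), KRT33A (122 CPM), KRT35 (26.1 CPM), KRT71 (329.8 CPM) and KRT84 (5.47 CPM).

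The remaining 4 fall on other rams. Ram 871784 was low at mid-tail in KRT1 (4207 CPM), KRT15 (452 CPM) and the summed suprabasal keratins (5156 CPM), and ram 871932 was low at the base in KRT222 (2.79 CPM).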

How the results depend on the processing

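No keratin called from base to tip reversed its direction under any alternative run, and the counts between genotypes and for the difference of the change between genotypes were 0 under all of them. The settings moved the counts from base to tip. No share over all genes is set beside these counts, so they show how calls move and not an excess of keratins. In A/A, with 5 keratins called, DESeq2 gave 9, single libraries 10, the library number as a replicate block on single libraries 10, each genotype fitted alone 1, the fit without the ram block 0, and an adjusted p of at most 0.01 with an absolute log2 fold change over 1 gave 1. Leaving out 1 ram gave 1 to 4, with 1 without 871772, 871787, 871868 or 871932 and 2 without 871784 or 871869. In D/D, with 0 called, DESeq2 gave 5, limma-voom 1, library totals 1, no filter on low counts 2, single libraries 4, the library number as a block 4, each genotype fitted alone 8 and the fit without the 3 base libraries 2. Leaving out 1 ram gave 0 to 2, with 2 without 835507 or 871772. Over all rams, with 10 called, the fit without the ram block gave 0, the stricter threshold 3 and leaving out 1 ram 3 to 14, with 3 without 871787, 4 without 871868 and 6 without 871869. DESeq2 called 12, of which 9 were among the 10, and limma-voom the same 10. At mid-tail, with 0 called, DESeq2 gave 1 over all rams and 1 in A/A, single libraries 4 and 3, and the library number as a block 4 and 2. Each genotype fitted alone gave 1 in D/D at mid-tail, and leaving out 1 ram gave 0 to 2 over all rams, with 2 without 835507. Blocking by ram is the reported fit, and without the replicate block 0 keratins were called in any comparison of positions. The cause of these shifts was not tested. The median of the simple epithelial keratins between genotypes at mid-tail was 0.73, and 0.37 without ram 871787. Scaling by library totals moved the median of all genes for the difference in the change to the tip between genotypes from 0.00 to 0.13. Genes at a few CPM, such as KRT222 and KRT20, are limited by depth.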
